A study of Mus musculus with 12 samples.

Results

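The 3 libraries labelled old and melatonin (O1_Mel, O3_Mel and O5_Mel) were set against the 3 young vehicle libraries (Y2_Veh, Y4_Veh and Y5_Veh), which makes 6 of the 12 libraries of the series. Each library labelled melatonin was also paired with the young library it correlated with most, giving the pairs O1_Mel with Y2_Veh, O3_Mel with Y4_Veh and O5_Mel with Y5_Veh. The pairs were therefore picked from the expression values themselves. Differences within them are given as a description that ranks genes, and a call within pairs is not an independent test. They are called the first, the second and the third pair in this order.

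The labels give total RNA of mouse bone marrow mesenchymal stem cells (MSCs), extracted with Trizol and sequenced by the BGISEQ-500 protocol. The O_Mel libraries carry the labels old and melatonin, at 1 µM for 24 hours, and the Y_Veh libraries carry the label young with vehicle in the title. The other 6 libraries are old vehicle, O1_Veh, O3_Veh and O5_Veh in the table that holds the melatonin libraries and O2_Veh, O8_Veh and O9_Veh in the table that holds the young ones. All were grown in DMEM with 10% FBS. Strain, sex, ages and whether libraries came from separate animals or cultures are not given, so p-values measure the spread between libraries, which may be technical. Age label, treatment label and table all differ between the groups and cannot be told apart.

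MSCs are stromal cells of the marrow that can form osteoblasts, adipocytes and chondrocytes, and plated marrow also carries macrophages that adhere with them. Melatonin is a hormone of the pineal gland that acts on cells through the G protein-coupled receptors MT1 and MT2. The series asks about NSD2, a histone methyltransferase that marks lysine 36 of H3, in bone formation by senescent MSCs.

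Depth was even, at 20595378 to 21309663 estimated counts a library, with 15593 to 16722 genes detected. A count of 0 allows up to 3 counts, or 0.136 to 0.151 CPM (counts scaled by library size), which covers counting error only. Levels are CPM scaled by TMM over all 12 libraries. Of the 13 MSC stroma markers, Lepr, the leptin receptor gene of marrow stroma, was at 0 in O5_Mel and at most 0.38 CPM in the other 5. The stroma markers summed to 5031 to 5972 CPM in the melatonin-labelled libraries and to 5031 to 5691 CPM in the young ones. The 20 macrophage markers summed to 980, 116 and 205 CPM in O1_Mel, O3_Mel and O5_Mel, against 942, 68.6 and 160 CPM in Y2_Veh, Y4_Veh and Y5_Veh. The old vehicle libraries held 1092 to 22352 CPM of them. In bulk RNA, fewer cells of a type and less RNA per cell cannot be told apart.

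Each library labelled melatonin resembled 1 young library far more than it resembled the other libraries of its own label. Over 13799 genes, log2 CPM correlated at r = 0.990 for O1_Mel with Y2_Veh, 0.994 for O3_Mel with Y4_Veh and 0.993 for O5_Mel with Y5_Veh. Among the melatonin-labelled libraries r ran from 0.896 to 0.931, and among the young ones from 0.895 to 0.932. With the old vehicle library of the same label number, r was 0.952 for O1_Mel, 0.809 for O3_Mel and 0.766 for O5_Mel. These values describe the pairs, since r chose them. Each library labelled melatonin thus stood closer to 1 young library than to any old vehicle library of its own age label. Whether labels or columns were exchanged was not tested, and each difference below is between libraries as labelled.

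**Figure D1:**
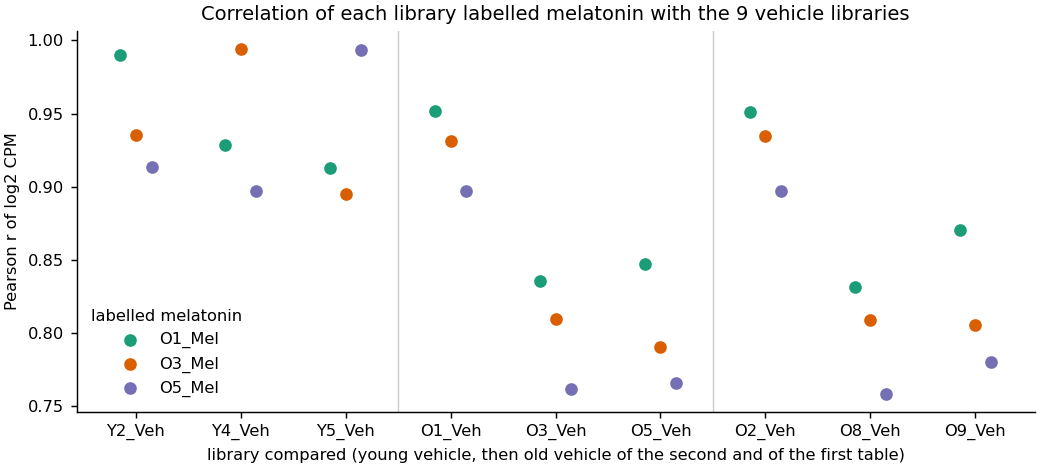
Pearson r of log2 CPM (vertical axis) of each library labelled melatonin (colours) with the 9 vehicle libraries (horizontal axis), over 13799 genes. Each colour has 1 point at a rounded 0.990 to 0.994, at its matched young library, and the remaining points lie at 0.952 or below.

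Genes that varied most between young libraries entered the correlations that chose the pairs, so their order in the partners is a description of the match. Of 905 genes with a mean of at least 5 CPM and at least a 4-fold range among the young libraries, 844 (93.3%) had the same rank order in the matched melatonin-labelled libraries. The highest young library and the highest melatonin-labelled library were partners for 872 of them (96.4%). Ddx3y, a Y-linked RNA helicase gene, had 81.7 CPM in O5_Mel and 68.1 CPM in Y5_Veh, against at most 0.15 CPM in the other 10 libraries. Cdkn2a, which encodes the cell cycle inhibitors p16 and p19ARF, had 258, 67.0 and 1.46 CPM in O1_Mel, O3_Mel and O5_Mel, against 240, 61.7 and 1.31 CPM in Y2_Veh, Y4_Veh and Y5_Veh. Col1a1, the gene of the main bone collagen chain, had 7148, 5047 and 21442 CPM in the melatonin-labelled libraries, against 7182, 5182 and 23295 CPM in their young partners. In each of these genes the libraries differed widely within a label and little within a pair.

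For the tested genes named for the study's question, the log2 difference fitted over the 3 pairs was at most 0.11 in size. Cd68 was the exception and is given with the macrophage markers. Single pairs could differ by more, as for Nsd2, which was lower in O1_Mel and higher in O5_Mel than in their partners. Nsd2 (107823) had 41.2, 137 and 77.2 CPM in O1_Mel, O3_Mel and O5_Mel, against 48.4, 139 and 63.8 CPM in Y2_Veh, Y4_Veh and Y5_Veh. The groups overlapped, and the matched-pair log2 difference was 0.01 ± 0.08 (SE, 3 pairs, edgeR quasi-likelihood test, Benjamini-Hochberg adjusted p = 1.000). Runx2, the transcription factor that starts the osteoblast lineage, had 56.3, 58.3 and 53.5 CPM in the melatonin-labelled libraries, against 50.8, 57.6 and 55.0 CPM in the young ones. Its log2 difference within pairs was 0.04 ± 0.06 (SE). Each SE printed is that of the fit, which weights pairs by their counts, and can be smaller than the spread between pairs. Pparg, the adipocyte regulator, differed by 0.04 ± 0.09, Cdkn1a, the p21 cell cycle inhibitor gene, by -0.09 ± 0.06, Mki67, a marker of cycling cells, by 0.01 ± 0.09, and Nr1d1, a repressor of the clock, by -0.01 ± 0.07. Sp7, a regulator of osteoblasts downstream of Runx2, was at 0.15 to 0.37 CPM in the melatonin-labelled libraries and 0.30 to 0.78 CPM in the young ones, too low to be tested. Alpl, the bone alkaline phosphatase gene, was also too low, at 1.65, 0.046 and 0.10 CPM in O1_Mel, O3_Mel and O5_Mel, against 3.91, 0.32 and 0 CPM in Y2_Veh, Y4_Veh and Y5_Veh. Mtnr1a, the gene of the MT1 receptor, reached at most 0.046 CPM, below what a count of 0 allows.

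Taken as 3 libraries against 3 with no pairs, no gene was called. edgeR's quasi-likelihood test called 0 of 13344 genes (0%) at a Benjamini-Hochberg adjusted p under 0.05, the smallest adjusted p was 1, and 9 genes had an unadjusted p under 0.05. DESeq2 and limma-voom called 0 as well. On simulated counts the edgeR fit without pairs recovered 0% of 2-fold changes, so 0 calls does not show that the groups were alike. The groups did not overlap for 92 genes (0.689%), 52 of them higher (0.39%) and 40 lower (0.3%) in the melatonin-labelled libraries. The annotated genes with the smallest p and separate groups, none of them called, were Zfp966, Sh3bgrl2, Zfp595, Drc3 and Trp53tg5 on the higher side and Rnf208, Prex2, Dlgap3, Csmd1 and Mob3b on the lower side. Prex2, a gene of a Rac exchange factor, had 19.5, 19.5 and 18.7 CPM in O1_Mel, O3_Mel and O5_Mel, against 21.1, 24.7 and 25.1 CPM in Y2_Veh, Y4_Veh and Y5_Veh (log2 difference -0.30 ± 0.15, edgeR adjusted p = 1.000). The median standard error of a log2 difference was 0.29 in this fit and 0.08 with the matched pair as a term. For Nsd2 it was 0.55 and 0.08.

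Single pairs differed in a small share of genes, within the range of the old vehicle pairs. The share in the first pair was exceeded only by the old vehicle pair O5_Veh with O9_Veh, at 6.19%. Among genes with at least 10 counts in one of both libraries, 411 of 13945 (2.95%) lay past 2-fold between O1_Mel and Y2_Veh, with 179 higher (1.28%) and 232 lower (1.66%) in O1_Mel. In O3_Mel against Y4_Veh, 289 of 13313 (2.17%) did, 152 higher (1.14%) and 137 lower (1.03%). In O5_Mel against Y5_Veh, 260 of 13072 (1.99%) did, 118 higher (0.903%) and 142 lower (1.09%). A chi-square of both counts per gene had a median 3.75, 1.88 and 3.17 times that of counting error in these pairs, and 2.11, 3.98 and 6.97 times in the old vehicle pairs. Against a young library that was not its partner, 19.9% to 26.5% of genes lay past 2-fold, and against the old vehicle library of the same number 14% to 34.2%. Old vehicle pairs matched across the tables in the same way had 1.77%, 2.18% and 6.19%, so differences of this extent also stood between libraries with the same labels.

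**Figure D2:**
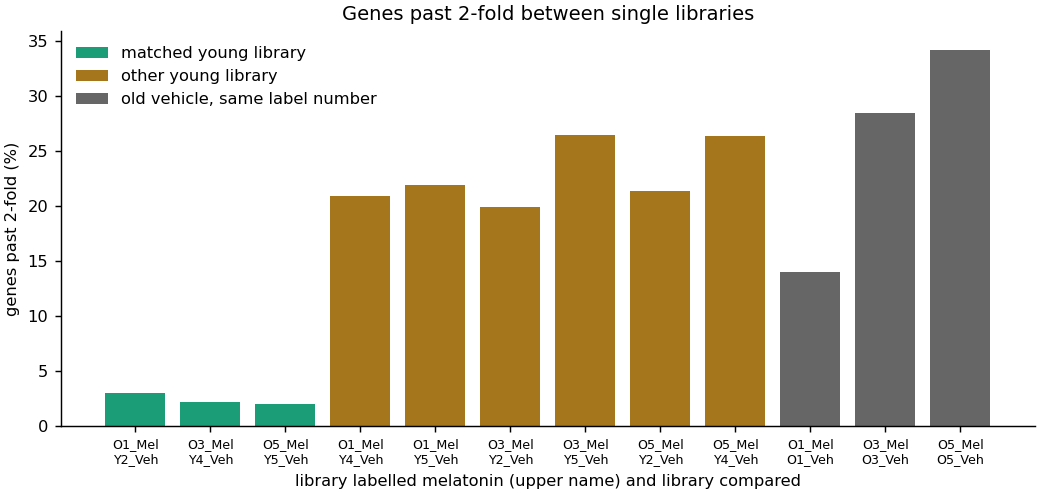
Percent of genes past 2-fold (vertical axis) between single libraries, for each library labelled melatonin with its matched young library, the other young libraries and the old vehicle library of the same label number. The matched pairs stand at 1.99% to 2.95%, and all other bars at 14% or more.

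Few of these genes were shared between pairs. Past 2-fold in the same direction in all 3 pairs were 0 genes higher (0%) and 2 genes lower (0.0159%) of 12565 counted in each pair. The 2 were Rnf208, a ring finger gene, and Dlgap3, a gene of the postsynaptic scaffold, both scarce. Rnf208 had 0.14, 0.32 and 0.10 CPM in O1_Mel, O3_Mel and O5_Mel, against 0.68, 0.83 and 0.76 CPM in their young partners, and Dlgap3 had 0.23, 0.37 and 0.26 CPM against 0.55, 1.11 and 0.56 CPM. Their groups did not overlap, but both were near the counting floor. In 2 pairs the counts were 22 higher and 25 lower, of 14302 genes counted in at least 1 pair. Of these 14302, 54 lay past 2-fold in opposite directions in different pairs.

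With the pair as a term, 6 of 13344 genes (0.045%) were called, 3 higher (0.0225%) and 3 lower (0.0225%) in the melatonin-labelled libraries, and 433 (3.24%) had an unadjusted p under 0.05. The number was unstable. It was 274 without the pair O3_Mel and Y4_Veh, 25 without O1_Mel and Y2_Veh, and 5 without O5_Mel and Y5_Veh, and 0 when the spread was shared over all 12 libraries. Of the 6, 4 are KRAB-type zinc finger genes or predicted relatives on chromosome 2, 1 is related to the ferritin light chain gene Ftl1 and 1 is the macrophage gene Mrc1. KRAB zinc finger proteins are DNA-binding repressors, many directed at transposons, and their genes sit in clusters of recent duplicates. The predicted genes were chosen for naming after their values were seen.

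The promoters of this cluster show how alike its members are. Both windows run from 250 bases before to 50 bases after the RefSeq gene start (GRCm38.p6), Zfp966 at chr2:175931051-175931350 on the minus strand and 2210418O10Rik at chr2:176226315-176226614 on the plus strand. Over the 290 bases that overlap, which leaves out the first 10 of the second sequence, 274 (94.5%) are identical. Capitals mark the 16 bases of 2210418O10Rik that differ from Zfp966. The window of Zfp967 is identical to that of Zfp966 at 300 of 300 bases.
Zfp966: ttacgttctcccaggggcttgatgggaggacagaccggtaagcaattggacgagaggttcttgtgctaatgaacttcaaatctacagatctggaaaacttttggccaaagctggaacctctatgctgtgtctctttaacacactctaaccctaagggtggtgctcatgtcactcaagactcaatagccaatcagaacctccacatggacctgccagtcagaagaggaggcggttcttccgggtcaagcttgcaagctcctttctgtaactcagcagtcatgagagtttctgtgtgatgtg
2210418O10Rik: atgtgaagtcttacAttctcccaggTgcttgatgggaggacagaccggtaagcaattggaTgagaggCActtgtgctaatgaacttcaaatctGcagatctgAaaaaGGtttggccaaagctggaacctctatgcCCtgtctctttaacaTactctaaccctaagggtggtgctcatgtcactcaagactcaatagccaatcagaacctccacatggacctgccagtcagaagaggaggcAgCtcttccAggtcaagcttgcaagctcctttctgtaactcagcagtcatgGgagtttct

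Zfp966 (667962) had 11.3, 21.6 and 12.6 CPM in O1_Mel, O3_Mel and O5_Mel, against 6.23, 10.8 and 7.46 CPM in Y2_Veh, Y4_Veh and Y5_Veh. The groups did not overlap, and the matched-pair log2 difference was 0.88 ± 0.10 (SE, edgeR adjusted p = 0.0094). Gm14296 (102639598), a predicted gene, had 9.91, 19.2 and 19.1 CPM in the melatonin-labelled libraries, against 5.17, 4.11 and 7.56 CPM in the young ones. It differed by 1.49 ± 0.18 (edgeR adjusted p = 0.0094), with separate groups. 2210418O10Rik (100504263) ran the other way, with 6.62, 2.54 and 3.10 CPM in O1_Mel, O3_Mel and O5_Mel, against 10.95, 20.9 and 13.5 CPM in Y2_Veh, Y4_Veh and Y5_Veh. Its log2 difference was -1.88 ± 0.29 (edgeR adjusted p = 0.0493), and this call was lost with DESeq2 size factors, DESeq2, limma-voom, unrounded counts or no filter. Gm4631 (102633156) had 5.22, 5.67 and 8.51 CPM in the melatonin-labelled libraries, against 8.65, 10.2 and 16.3 CPM in the young ones, a log2 difference of -0.85 ± 0.11 (edgeR adjusted p = 0.0094). In each of the 4 genes all pairs had 1 sign, and the groups nearly touched for Gm4631.

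LOC100862446 (100862446) had 53.0, 41.9 and 51.6 CPM in O1_Mel, O3_Mel and O5_Mel, against 80.4, 53.7 and 76.0 CPM in Y2_Veh, Y4_Veh and Y5_Veh. The groups were separate by a small gap, and the log2 difference was -0.52 ± 0.06 (SE, edgeR adjusted p = 0.0094). Ftl1, the gene of the ferritin light chain, an iron storage protein, had 2935, 1868 and 2374 CPM in the melatonin-labelled libraries, against 3195, 1690 and 2604 CPM in the young ones. LOC100862446 had 63.5% of its 31-base words in transcripts of Ftl1.

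These 5 genes share much of their sequence with others, and the authors' counting could split reads between copies. Of the 31-base words of their GENCODE M21 transcripts, 93.9% (Zfp966), 61.5% (Gm14296), 100% (2210418O10Rik), 50.8% (Gm4631) and 74.1% (LOC100862446) also occurred in another gene. At least 50% of words were shared by 5 of the 6 called genes (83.3%), by 14 of the 50 genes with the smallest p (28%) and by 369 of 13152 tested genes with a value (2.81%). Every word of 2210418O10Rik is in Gm14296. Summed, Gm14296 and 2210418O10Rik had 16.5, 21.7 and 22.2 CPM in O1_Mel, O3_Mel and O5_Mel, against 16.1, 25.0 and 21.03 CPM in Y2_Veh, Y4_Veh and Y5_Veh, which are log2 ratios of 0.04, -0.21 and 0.08. These ratios were smaller than those of either gene alone. Zfp966 summed with Zfp967 gave log2 ratios of 0.43, -0.19 and 0.22. Whether reads were split between copies was not tested, and the levels of the single copies are given as uncertain.

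**Figure D3:**
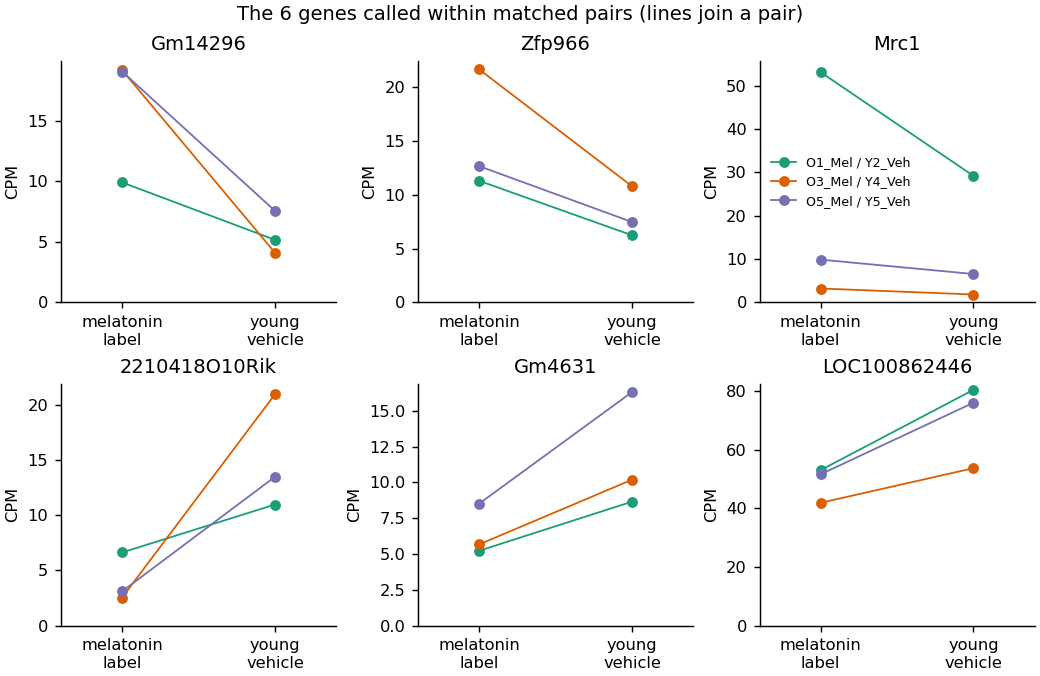
CPM (vertical axes, from 0) of the 6 genes called within pairs, with the library labelled melatonin at the left of each panel and its young partner at the right, joined by a line. All lines slope down in the top row (higher with the melatonin label) and up in the bottom row, while the Mrc1 pairs lie far apart in level.

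Mrc1 (17533), which encodes the mannose receptor CD206 of macrophages, shared 0% of its words with another gene. It had 53.1, 3.22 and 9.87 CPM in O1_Mel, O3_Mel and O5_Mel, against 29.2, 1.83 and 6.56 CPM in Y2_Veh, Y4_Veh and Y5_Veh. The groups overlapped because the pairs differed in level, while each pair was higher with the melatonin label. The log2 difference was 0.77 ± 0.10 (SE, edgeR adjusted p = 0.0143), and the adjusted p was 0.0907 without O1_Mel and Y2_Veh. Of 18 tested macrophage markers, Mrc1 included, 14 were higher and 4 lower. The 1 called was Mrc1 itself. With Mrc1 counted, 6 were higher at an unadjusted p under 0.05 (33.3%, against 1.72% of all genes). The median log2 difference of the 18 markers was 0.17, against 0.00 over all genes tested. It was 0.43 by DESeq2, 0.05 by limma-voom and 0.01 without O3_Mel and Y4_Veh.

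The macrophage markers differed between pairs. Their median log2 ratio was -0.19 in O1_Mel over Y2_Veh, 0.87 in O3_Mel over Y4_Veh and 0.49 in O5_Mel over Y5_Veh. Lyz2, the lysozyme gene of myeloid cells, had 458, 44.0 and 89.7 CPM in the melatonin-labelled libraries, against 396, 23.2 and 73.8 CPM in the young ones (log2 difference 0.41 ± 0.10, edgeR adjusted p = 0.551). Cd68, a lysosomal glycoprotein gene, had 47.1, 7.90 and 10.7 CPM against 39.4, 5.09 and 9.13 CPM (0.33 ± 0.10, edgeR adjusted p = 1.000). Csf1r, the receptor gene of the macrophage growth factor CSF1, had 26.7, 5.24 and 6.19 CPM against 35.0, 4.22 and 3.13 CPM, so that O1_Mel was the lower of its pair. Adgre1, which encodes the F4/80 antigen, was ordered in the same way as Csf1r, at 19.5, 2.30 and 5.59 CPM against 29.4, 1.24 and 2.52 CPM. Marco, a scavenger receptor gene of macrophages, stood out in the first pair alone, with 0.96 CPM in O1_Mel and 12.2 CPM in Y2_Veh, and at most 0.30 CPM in the other 4 libraries. The part of these transcripts in the Mrc1 difference was not tested.

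Interferon-stimulated genes had the lowest median of the lists with at least 10 tested genes. They encode antiviral proteins, and the factors ISGF3 and IRF bind GAAA repeats in their promoters. Of 27 tested, 3 were higher and 24 lower in the melatonin-labelled libraries, 0 were called, and 19 were lower at an unadjusted p under 0.05 (70.4%, against 1.52% of all genes). The median log2 difference was -0.24, against 0.00 over all genes. In all 3 pairs 16 of them were lower (59.3%) and 1 higher (3.7%), against 9.49% and 11.2% of all genes. The pairs differed in extent, with medians of -0.25 in O1_Mel over Y2_Veh, -0.02 in O3_Mel over Y4_Veh and -0.44 in O5_Mel over Y5_Veh. Old vehicle libraries of the melatonin table over their matches in the other table had medians of -0.03, 0.08 and 0.96, so a pair with the same labels could differ by more.

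Promoters of Ifi44 and Xaf1, both among the interferon-stimulated genes with the smallest p, are shown because of these repeats. The windows span the same distance around RefSeq starts on GRCm38.p6, Ifi44 at chr3:151749861-151750160 on the minus strand and Xaf1 at chr11:72301379-72301678 on the plus strand. Capitals mark matches to AANNGAAA on either strand, with overlapping matches joined. The motif was in the windows of 17 of the 23 list members with one (73.9%) and of 2246 of 10635 tested genes (21.1%). A longer motif, the core of the interferon-stimulated response element, was in 13 of 23 (56.5%) and in 396 of 10635 tested genes (3.7%). A match describes the letters and shows no binding.
Ifi44: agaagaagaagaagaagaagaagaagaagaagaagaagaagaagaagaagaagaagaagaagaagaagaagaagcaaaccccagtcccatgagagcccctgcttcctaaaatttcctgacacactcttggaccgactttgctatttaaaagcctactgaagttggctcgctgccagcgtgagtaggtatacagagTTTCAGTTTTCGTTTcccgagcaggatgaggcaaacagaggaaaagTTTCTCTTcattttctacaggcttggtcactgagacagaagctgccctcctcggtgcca
Xaf1: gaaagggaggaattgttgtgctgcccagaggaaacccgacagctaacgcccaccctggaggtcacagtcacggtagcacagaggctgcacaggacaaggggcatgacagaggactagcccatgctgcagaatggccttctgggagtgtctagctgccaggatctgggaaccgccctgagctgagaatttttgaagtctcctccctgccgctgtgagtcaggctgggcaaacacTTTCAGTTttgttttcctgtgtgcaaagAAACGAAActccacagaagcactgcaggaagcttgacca

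Oasl2, a gene of the 2'-5' oligoadenylate synthetase-like proteins, had 57.6, 26.0 and 29.0 CPM in O1_Mel, O3_Mel and O5_Mel, against 76.7, 28.6 and 47.0 CPM in Y2_Veh, Y4_Veh and Y5_Veh. Its groups overlapped, each pair was lower, and the log2 difference was -0.43 ± 0.09 (SE, edgeR adjusted p = 0.296). Ifi44 had 29.8, 8.10 and 8.68 CPM in the melatonin-labelled libraries, against 40.4, 9.81 and 13.2 CPM in the young ones (-0.45 ± 0.09, edgeR adjusted p = 0.321). Xaf1, an interferon-induced regulator of apoptosis, had 33.3, 15.04 and 16.9 CPM against 44.0, 16.7 and 22.9 CPM (-0.34 ± 0.08, edgeR adjusted p = 0.551). Bst2, which encodes tetherin, had 151, 47.3 and 53.2 CPM against 182, 49.9 and 70.7 CPM (-0.26 ± 0.06, edgeR adjusted p = 0.627). Isg15, the ubiquitin-like modifier gene, had 18.6, 3.46 and 8.50 CPM against 21.3, 3.495 and 15.2 CPM. The log2 ratio of Isg15 was -0.19 in the first pair, -0.01 in the second and -0.84 in the third. None of these genes passed the threshold over all 3 pairs.

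**Figure D4:**
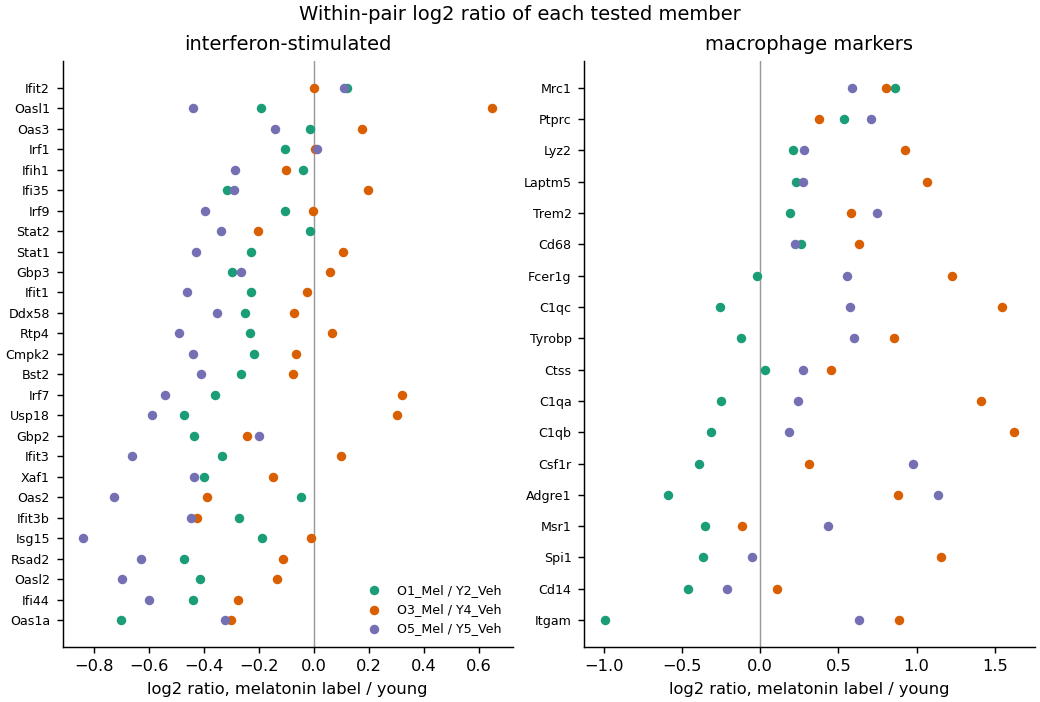
Log2 ratio of a library labelled melatonin over its young partner (horizontal axes) for each tested interferon-stimulated gene (left) and macrophage marker (right), 1 point per pair. Interferon-stimulated genes lie mostly left of 0 with pair medians of -0.25, -0.02 and -0.44, and macrophage markers spread to both sides with -0.19, 0.87 and 0.49.

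Leaving out the pair O3_Mel and Y4_Veh raised the number of calls most. Without it 274 of 13685 genes (2%) were called, 153 higher (1.12%) and 121 lower (0.884%), and in that pair only 89 of the 274 (32.5%) had the same sign. All 6 genes called with 3 pairs were among them. The called genes held 16 of 27 interferon-stimulated genes (59.3%), all lower, among them Oasl2 at -0.54 ± 0.07 (SE, edgeR adjusted p = 3.9e-09) and Ifit3 at -0.47 ± 0.06 (edgeR adjusted p = 6.9e-09). Gpx3, the secreted glutathione peroxidase gene, differed by -0.995 ± 0.092 and Col28a1, a collagen gene, by 0.92 ± 0.09. Their SEs do not show how far the 2 pairs stood apart. Both genes rest on the first pair: Gpx3 had 66.2 CPM in O1_Mel and 139 CPM in Y2_Veh but 1.76 CPM in O5_Mel and 1.72 CPM in Y5_Veh. Col28a1 had 125 CPM in O1_Mel and 57.4 CPM in Y2_Veh but 4.38 CPM in O5_Mel and 4.74 CPM in Y5_Veh. These genes were picked after their values were seen. The p-values rest on 2 pairs picked by correlation, with the pair left out whose removal gave the most calls. They rank genes and support no claim. With all 3 pairs, 0 of the 27 interferon-stimulated genes were called. Signs in a pair left out were counted for the second pair only. In other lists the first pair stood apart. Its median was -0.19 for macrophage markers, against 0.87 and 0.49, and -0.30 for proliferation genes, against 0.04 and 0.19.

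Genes that differed most in single pairs are given here with no test. Egfl6, a secreted epidermal growth factor-like gene, had 9.91, 0.22 and 47.6 CPM in O1_Mel, O3_Mel and O5_Mel, against 3.06, 0.073 and 44.1 CPM in Y2_Veh, Y4_Veh and Y5_Veh. Col2a1, the cartilage collagen gene, had 5.504, 4.78 and 0.050 CPM in O1_Mel, O3_Mel and O5_Mel, against 14.5, 5.92 and 0 CPM in Y2_Veh, Y4_Veh and Y5_Veh, so that the third pair was at or under the counting floor. Laptm5, a lysosomal membrane gene of blood cells, had 78.6, 6.94 and 12.4 CPM in the melatonin-labelled libraries, against 67.0, 3.30 and 10.3 CPM in the young ones, with the largest ratio in the second pair. Ptprd, a receptor tyrosine phosphatase gene, had 48.3, 28.2 and 13.5 CPM against 47.5, 28.9 and 5.88 CPM, and differed in the third pair. Fam177a2, all of whose words occur in another gene, had 48.2, 0.59 and 48.8 CPM in O1_Mel, O3_Mel and O5_Mel, against 19.5, 23.8 and 1.25 CPM in Y2_Veh, Y4_Veh and Y5_Veh. Its sign thus turned between pairs, and with its shared sequence its level is uncertain. Among annotated genes of at least 5 CPM, 14 of 10627 were past 2-fold higher and 6 lower in the first pair. In the second pair they were 2 and 4 of 10218, and in the third 3 and 2 of 10367.

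Among other genes higher within pairs with a small p, none passed. C3, the central complement gene, had 127, 3.03 and 48.9 CPM in O1_Mel, O3_Mel and O5_Mel, against 78.7, 2.98 and 37.8 CPM in Y2_Veh, Y4_Veh and Y5_Veh (log2 difference 0.50 ± 0.09, edgeR adjusted p = 0.141). Lilrb4a, an inhibitory receptor gene of myeloid cells, had 68.0, 7.79 and 8.13 CPM against 44.9, 4.89 and 6.48 CPM (0.55 ± 0.09, edgeR adjusted p = 0.0933). As 55.7% of the words of Lilrb4a occur in another gene, its level is uncertain. On the lower side, C1qtnf3, a secreted C1q-domain gene, had 18.2, 0.28 and 4.63 CPM against 28.5, 0.37 and 6.21 CPM (-0.57 ± 0.12, edgeR adjusted p = 0.339). In each of the 3, all pairs had 1 sign and the groups overlapped.

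Over the 3 pairs, the medians of bone, senescence and growth lists stayed near the centre. Only 0.045% of all genes were called, so 0 called in a list says little about that list. Of 19 tested osteoblast genes 10 were higher and 9 lower, with 0 called and a median of 0.00. Of 22 cell cycle arrest genes of senescence 8 were higher and 14 lower (median -0.04), and of 28 secreted factors of senescence 10 and 18 (median -0.04), with 0 called in either. Of 36 proliferation genes 17 were higher and 19 lower (median -0.01), but their pair medians were -0.30, 0.04 and 0.19. Genes of H3K36 methylation had 14 higher and 3 lower of 17, with a median of only 0.04 and 0 called. Of 19 clock genes 10 were higher and 9 lower (median 0.01), and of 4 tested genes of melatonin receptors and handling 3 and 1 (median 0.06).

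Several lists leaned to the lower side by little. Of 25 immediate early genes, which answer to serum or stress within minutes, 4 were higher and 21 lower (median -0.09, pair medians -0.18, 0.05 and -0.11). Of 33 cytosolic ribosomal protein genes 2 were higher and 31 lower (median -0.05, pair medians -0.11, 0.11 and -0.13), and of 16 smooth muscle contractile genes 3 and 13 (median -0.07). None of their members was called, against 0.045% of all genes. In these lists too the second pair had a median of the opposite sign, at 0.05 and 0.11, or at 0.00 for the contractile genes.

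**Figure D5:**
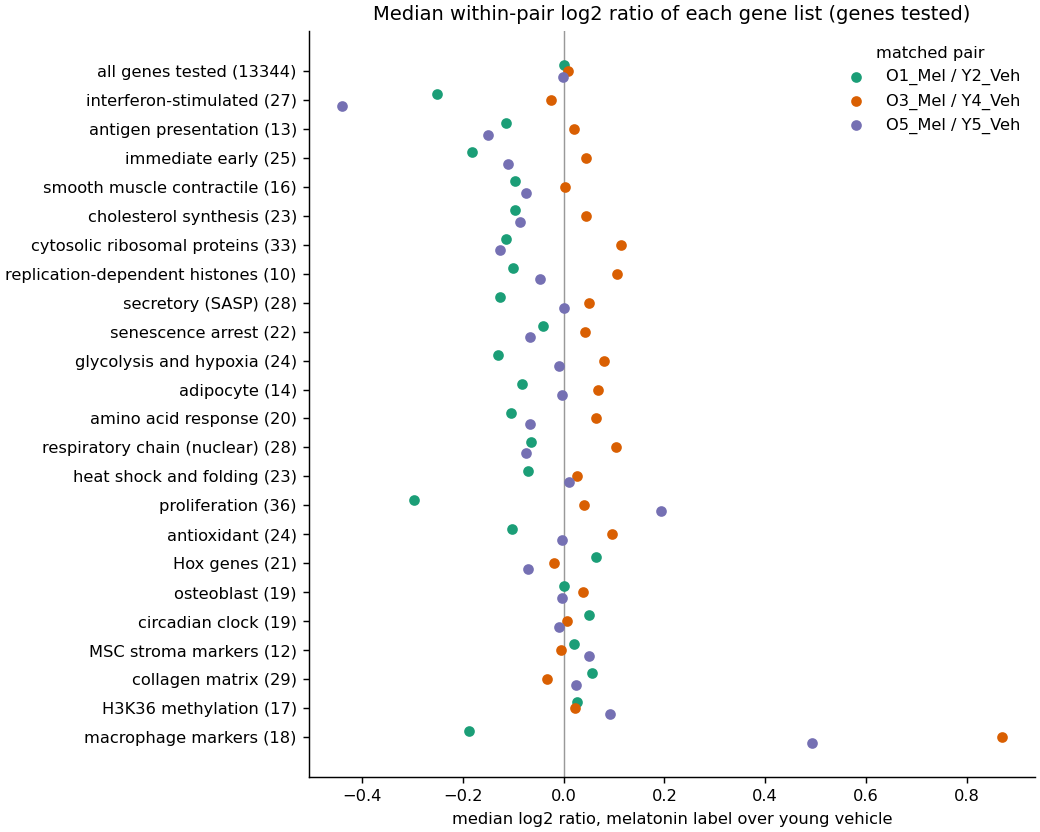
Median log2 ratio of each gene list (rows, number of tested genes in brackets) in each matched pair (colours), library labelled melatonin over young partner. Interferon-stimulated genes stand at -0.25, -0.02 and -0.44, macrophage markers at -0.19, 0.87 and 0.49, and all genes tested at 0.00, 0.01 and 0.00.

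The old vehicle libraries, present in both tables, were paired across them by mutual highest correlation. Each pair joins different libraries, so differences between tables and between libraries cannot be told apart. The difference within these pairs is called the table difference here. In matched pairs of O1_Veh with O2_Veh, O3_Veh with O8_Veh and O5_Veh with O9_Veh, 0 of 13605 genes (0%) were called by edgeR, and 525 had an unadjusted p under 0.05. DESeq2 called 1, limma-voom 0, and edgeR 8 without O5_Veh and O9_Veh. The interaction asks whether the difference of melatonin-labelled and young libraries differs from that within the old vehicle pairs. It gave 0 calls in 14133 genes (0%) by edgeR, and 440 had an unadjusted p under 0.05. DESeq2 and limma-voom gave 0 calls too. For Zfp966 the table difference was -0.51 and the interaction 1.25 on the log2 scale, and for Mrc1 -0.22 and 1.00. For Oasl2 they were 0.45 and -0.89. The old vehicle pair medians of interferon-stimulated genes, -0.03, 0.08 and 0.96, show that a table difference can rest on 1 pair. The interaction shares its spread over all 12 libraries, and with that spread the within-pair difference itself gave 0 calls too. Its 0 calls therefore cannot decide whether the calls within pairs differ from what the old vehicle pairs hold.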

How the data were processed

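RNA sequencing of 12 mouse MSC libraries was deposited by the authors as 2 tables of 18908 genes. Estimated counts deposited by the authors are those of RSEM, per the submitters' processing notes, which also name Bowtie2, BWA and mm39; 67.7% lie within 0.005 of a whole number. FPKM values and TPM values deposited by the authors were not tested. Roles, versions and strand setting are not stated there. Tables were joined on gene symbol (all 18908 identifiers equal), and counts were rounded.

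Genes were kept by filterByExpr (minimum count 10, total 15), normalized by TMM and tested with edgeR 4.0.16 quasi-likelihood (R 4.3.3), without and with the matched pair as a term, two-sided, at a Benjamini-Hochberg adjusted p under 0.05. Log2 ratios of single pairs used a prior count of 0.5, correlations one of 2 and a mean count of at least 10. The SE beside a fitted difference was its size over the square root of edgeR's F, with the spread moderated over genes. Alternatives were DESeq2 1.42.0 and its size factors, limma-voom (limma 3.58.1), no filter, unrounded counts, other thresholds, a table term, a shared spread and leaving out libraries or pairs; DESeq2 and limma-voom for the table difference and interaction were added once results were known. The tests were checked on simulated counts drawn with the spread of the matched-pair fit. Over 6 libraries, edgeR recovered 0% of 1.5-fold, 0% of 2-fold and 31.4% of 4-fold changes. With the pair as a term it recovered 90.2%, 95.7% and 97.1%, with 5 false calls among 194. The simulated pairs agreed by construction, which the pairs of the data did not. These shares therefore do not measure what the fit recovers in the data. Totals of 20595378 to 21309663 counts per library set the precision. Promoters are from RefSeq (GRCm38.p6) and transcripts from GENCODE M21, another build than that of the files, so file coordinates were not used.

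Members and gene lists were chosen with earlier results of these data known. Named genes are Nsd2, Runx2, Sp7, Alpl, Pparg, Cdkn1a, Cdkn2a, Mki67, Cd68, Col1a1, Nr1d1 and Mtnr1a, the 5 smallest p per direction with separate groups over 6 libraries, annotated genes called within pairs with 1 sign and at least 5 CPM, and up to 4 members of a list by p. Shared words, sums of related genes, rank orders, promoters, genes of single pairs, predicted genes and uncalled genes with a small p were chosen after values were seen. Mtnr1b and Mx1 were not matched.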

Additional observations from a re-analysis of the deposited data

Results flagged for a closer look

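Pparg, the adipocyte regulator, had 60.5 CPM in the old vehicle library O5_Veh, far from the other 5 old vehicle libraries. Chance flags about 1 in 20 groups, and this group is outside the comparison of melatonin-labelled and young libraries.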

How the results depend on the processing

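No paired analysis was possible because the melatonin-labelled and young libraries share only the label number 5; the fit with the matched pair as a term took its place and called 6 genes, against 0 without it. The count over 6 libraries stayed at 0 to 0 as each library was left out and at 0 under every other alternative run. Within pairs the count was 2 with a log2 difference above 1, 0 with the spread shared over 12 libraries, 5 to 274 as each pair was left out, and 5 to 8 elsewhere. DESeq2 called 5 and limma-voom 7, each sharing 5 of the 6. The old vehicle table difference ran from 0 to 8 as pairs were left out and was 1 by DESeq2. Genes past 2-fold in the 3 pairs (411, 289 and 260) numbered 160, 104 and 92 past 3-fold and 78, 24 and 19 with at least 50 counts.

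As each pair was left out, Nsd2 ran from -0.12 to 0.11, Runx2 from -0.020 to 0.078, Pparg from -0.016 to 0.086, Mki67 from -0.16 to 0.12 and Nr1d1 from -0.063 to 0.077 on the log2 scale, and Nr1d1 was 0.00019 by limma-voom. List medians ran from -0.027 to 0.0048 for osteoblast genes, -0.14 to 0.0021 for secreted senescence factors, -0.032 to 0.061 for clock genes and -0.33 to -0.14 for interferon-stimulated genes. The cause was not tested for any of these. Genes near 0.15 CPM and below lie at the counting floor, so a difference there was not detectable at this depth.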
